A study of Mus musculus with 12 samples.

Results

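Iron handling in the adrenal gland was followed through 10 genes: Hamp, which encodes the hormone hepcidin, the plasma carriers Trf, Hpx and Hp, the receptors and sensors Tfrc, Tfr2 and Hfe, the transporters Slc40a1 and Slc11a2, and the haem-degrading enzyme Hmox1. The genes were chosen by symbol, each had 1 probe set listed with that symbol alone, and all 10 were among the 15900 genes tested. RNA came from the adrenal glands of male C57Bl/6J mice aged 21 weeks, and each group was measured as 1 RNA pool hybridised to 3 Affymetrix Mouse Gene 1.0 ST arrays, giving 12 arrays. The p-values thus describe how far arrays of the same RNA scattered, and the variation from mouse to mouse does not enter them.

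The groups were ASP+CGP, ASP, CGP and CON. ASP+CGP mice were exposed to the sweetener aspartame (46 mg per kg in the drinking water) from in utero life onward, through the mother until weaning and directly afterwards. They were also exposed to CGP 39551, which competes with glutamate at NMDA receptors, through dams whose drinking water was dosed to their own body weight (5 mg per kg) until weaning. ASP mice had aspartame alone and CGP mice the antagonist alone by the same routes and doses, while CON mice had neither. All 4 groups shared the strain, the sex and an overnight fast before sampling.

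Hepcidin is a peptide hormone made chiefly by hepatocytes. It binds the iron exporter ferroportin, the product of Slc40a1, and causes its degradation, so that less iron enters plasma from the gut and from macrophages. Plasma iron travels on transferrin and enters cells through the transferrin receptor Tfrc, whereas Tfr2 and Hfe take part in sensing iron-loaded transferrin and in signalling to Hamp through bone morphogenetic proteins (BMP) and SMAD factors. In the adrenal cortex iron is needed for the P450 enzymes of steroid synthesis and for the ferredoxin that feeds them electrons.

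The regulatory sequence of Hamp is shown because this gene had the largest differences of the 10 in ASP+CGP, and that of Hamp2, the second mouse hepcidin gene, because it lies beside Hamp on chromosome 7. The sequences are the 250 bases before the annotated start in the RefSeq table of build GRCm38.p6, both read 5′ to 3′ on the minus strand, from chr7:30944030-30944279 for Hamp and chr7:30924182-30924431 for Hamp2. Capitals mark matches to GGCGCC, the core of a BMP-responsive element, and to TTCNNNGAA, a STAT-type motif. Both strands were searched, and the matched positions do not overlap.
Hamp: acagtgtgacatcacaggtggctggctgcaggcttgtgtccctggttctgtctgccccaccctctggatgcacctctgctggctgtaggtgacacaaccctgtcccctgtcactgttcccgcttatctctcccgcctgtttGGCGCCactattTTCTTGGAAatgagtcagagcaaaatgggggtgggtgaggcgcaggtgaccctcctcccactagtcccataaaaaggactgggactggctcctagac
Hamp2: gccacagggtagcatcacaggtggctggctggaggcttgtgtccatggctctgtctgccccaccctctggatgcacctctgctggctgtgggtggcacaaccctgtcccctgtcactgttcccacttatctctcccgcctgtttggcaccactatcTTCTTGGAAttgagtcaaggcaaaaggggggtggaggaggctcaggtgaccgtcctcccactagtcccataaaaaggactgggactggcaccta
Over 247 aligned bases the sequences were identical at 227, or 91.9%. Hamp held a match to each motif and Hamp2 a match to TTCNNNGAA only. In the full windows, which add 50 bases after the start, GGCGCC was found in 11.9% and TTCNNNGAA in 8.3% of 32851 windows of 300 bases. Windows were listed for 5 of the 10 genes (Hamp, Tfrc, Tfr2, Hpx and Hfe). Among the other 4, Tfrc held 1 GGCGCC match, Hpx held 1 match to TTGCNNAA (a C/EBP-type motif in 10.8% of windows) and 1 to TGACNNNGC (an antioxidant-type motif in 12.4%), Hfe held 1 match to TGACNNNGC, and no match was found in the 3 windows of Tfr2. The HNF4-type motif TGNACTTTG, found in 1.41% of windows, was not matched in any window of the 5 genes.

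Adrenal markers were bright in all pools. The cortex enzyme gene Cyp11b1 had mean log2 signals of 13.91 in ASP+CGP, 13.81 in ASP, 13.87 in CGP and 13.9 in CON, and the chromaffin granule gene Chga lay between 13.45 and 13.62 in the 4 groups. For the marker counts that follow, 8.32% of all tested genes were called lower in ASP+CGP and 8.13% in ASP. In CGP 1.62% were called higher. Either way 14.4% were called in ASP+CGP and 17.9% in ASP. Other adrenal markers were lower in ASP than in CON. Of 10 cortex markers tested, 0 were called in ASP+CGP, 3 fell in ASP (Cyp11b2 by 0.67, Fdx1 by 0.55 and Nr5a1 by 0.53 on the log2 scale) and 0 were called in CGP, with 1 left in ASP after cyclic loess. Of 9 chromaffin markers 1 fell in ASP+CGP (0 after cyclic loess), 3 fell in ASP (Gata3 by 0.91, Slc18a1 by 0.74 and Phox2a by 0.71) and 0 were called in CGP. Genes of other cell types were also present and differed between the groups. Of 23 hepatocyte markers tested, 22 were lower in ASP+CGP, 19 lower in ASP and 19 higher in CGP, and their summed linear signal was 23100 to 24500 on ASP+CGP arrays, 31300 to 31600 on ASP arrays, 78100 to 80100 on CGP arrays and 52000 to 53800 on CON arrays. Of these markers, 0 were under a log2 signal of 6 on any array, and Alb averaged 12.42 in ASP+CGP, 12.68 in ASP, 13.64 in CGP and 13.15 in CON. Oligodendrocyte markers were higher in ASP in 15 of 15 cases and in 0 cases in ASP+CGP (5 with arrays centred on their medians) or CGP, and neuron markers in 10 of 10 cases in ASP, 2 in ASP+CGP and 0 in CGP. The summed oligodendrocyte signal was 2880 to 2990 on ASP+CGP arrays, 12700 to 13800 on ASP arrays and 2830 to 2860 on CGP arrays, against 2820 to 2860 on CON arrays, and that of the neuron markers was 3620 to 3940, 17300 to 18300 and 3860 to 4010, against 3900 to 4050 on CON arrays. On ASP+CGP arrays 2 to 3 oligodendrocyte markers were under a log2 signal of 6, on ASP arrays 0, and on CGP and CON arrays 4 to 5. Of 7 choroid plexus markers, 3 were higher in ASP (median 0.43), 1 in ASP+CGP (median 0.38) and 0 in CGP. These markers were dim, with 4 of them under a log2 signal of 6 on CON arrays. Genes were tested if any group mean reached 6. Kcnj13 and Otx2, both called in ASP, reached it only in the aspartame pools, so their calls are not free of that filter. The same may hold for oligodendrocyte and neuron markers under 6 on CON arrays. The median of all genes with CON signal under 6 was 0.33 in ASP+CGP and 0.06 in ASP. From 6 to 7 it was 0.25 and -0.01. Hepatocyte markers thus had calls in all 3 groups, and oligodendrocyte and neuron markers mainly in ASP. Iron genes had calls in all 3 groups too, but in CGP for only 2 of the 10. The part of these cell type markers in the results was not tested, nor was whether liver or brain tissue had entered the pools during dissection or handling. In pooled tissue RNA, fewer cells of a type and less RNA per cell cannot be told apart.

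Arrays of the same pool correlated at 0.989 to 0.995 over all genes. The arrays differed little in median log2 signal (7.84 to 7.94), while the interquartile range was 2.2 to 2.29 on ASP+CGP arrays against 2.58 to 2.62 on CON arrays. The median of all tested genes was -0.17 in ASP+CGP, -0.1 in ASP and 0 in CGP relative to CON, and after cyclic loess scaling it was -0.01, 0.01 and 0. A call required at least a 1.4-fold change with an adjusted p below 0.05 in the linear model. Of all called genes, 42.3% were higher in ASP+CGP than in CON (58.1% after cyclic loess and 69.8% after centring on medians), and 54.7% were higher in ASP than in CON (80.1% after cyclic loess and 59.3% after centring).

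**Figure D1:**
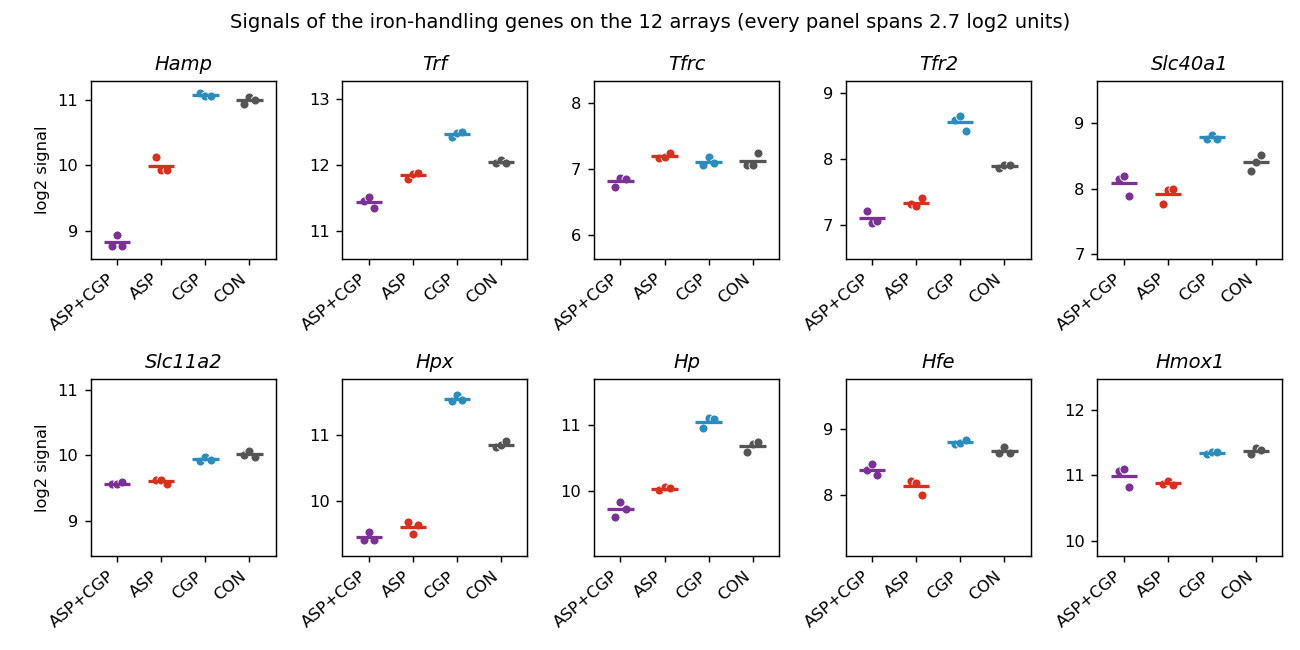
Log2 signal (vertical axis) of the 10 iron-handling genes on the 12 arrays, 1 panel per gene, with 3 points per pool and a bar at the pool mean; every panel spans the same number of log2 units. Hamp lies between 8.77 and 8.95 in ASP+CGP and between 9.93 and 10.13 in ASP, with CGP and CON together at 10.94 or above, whereas Tfrc stays between 6.73 and 7.25 in all pools.

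Of the 10 genes, Hamp had the widest range of group means, 2.24 log2 units. Its log2 signal was 8.77, 8.95 and 8.78 on the ASP+CGP arrays, 10.13, 9.93 and 9.93 on the ASP arrays, 11.1, 11.05 and 11.05 on the CGP arrays, and 10.94, 11.04 and 11 on the CON arrays (probe set 10562169, Entrez 84506, chromosome 7). The 3 ASP+CGP arrays lay below all others, the 3 ASP arrays came next, and the CGP arrays lay at or just above the CON arrays. Hamp fell in ASP+CGP to 0.224 of the CON level (log2 difference -2.16 ± 0.07 SE, n = 3 arrays per pool, limma adjusted p = 8.84e-11) and in ASP to 0.503 (-0.99 ± 0.07, adjusted p = 1.69e-08).

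In CGP, Hamp had a log2 difference of 0.08 from CON with a 95% interval of -0.07 to 0.23 (adjusted p = 0.845). A change as large as 1.4-fold lay outside this interval, which covers the scatter of arrays and not that between mice. Hamp was 0.446 of the ASP level in ASP+CGP (log2 difference -1.17 ± 0.07, adjusted p = 2.3e-09). No other of the 10 genes was called in that comparison, where 13.3% of all genes were called lower. After cyclic loess Tfrc was called lower there too. The aspartame difference in Hamp was -2.24 with the antagonist and -0.99 without it. The interaction subtracts the second of these values from the first and was -1.24 ± 0.1 (adjusted p = 1.04e-07). Under all scalings and with any single array left out, the Hamp difference from CON lay between -2.22 and -1.85 in ASP+CGP and between -1.06 and -0.83 in ASP.

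In the differences from CON, Hamp did not follow the hepatocyte markers in every group. In ASP+CGP all 23 markers had a higher log2 difference from CON than Hamp, since the marker median was -1.54 against -2.16 for Hamp. In ASP the marker median was -1.06 and Hamp stood in the middle of the list, with 12 markers further below CON and 11 less far. In CGP the marker median was 0.74, and all 23 markers had a larger difference than Hamp. When ASP+CGP was set against CGP, Hamp stood in the middle of the list again. Its difference was -2.24 and the marker median -2.31, with 12 markers further below and 11 less far. Whether Hamp differs from the markers beyond the spread of that list was not tested.

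Hamp2 showed another pattern. Its log2 signal was 7.86, 7.75 and 8.05 on ASP+CGP arrays, 7.12, 6.68 and 7.37 on ASP arrays, 7.98, 7.58 and 7.88 on CGP arrays, and 7.54, 7.64 and 7.64 on CON arrays (probe set 10562166, Entrez 66438). The ASP arrays lay below all CON arrays and the ASP+CGP arrays above them. The log2 difference from CON was 0.28 ± 0.14 in ASP+CGP (adjusted p = 0.0901), -0.55 ± 0.14 in ASP (0.684 of CON, adjusted p = 0.00452) and 0.21 ± 0.14 in CGP (adjusted p = 0.762). ASP+CGP was 1.78-fold higher than ASP (0.83 ± 0.14, adjusted p = 0.000192), whereas Hamp was lower in the same comparison. The call in ASP was lost after cyclic loess (-0.44), with the trend of each array on signal level removed (-0.42) and without the second ASP array (-0.36). Hamp2 was singled out after its values were seen, and since the genes are close copies, probes of either set could bind RNA of both.

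**Figure D2:**
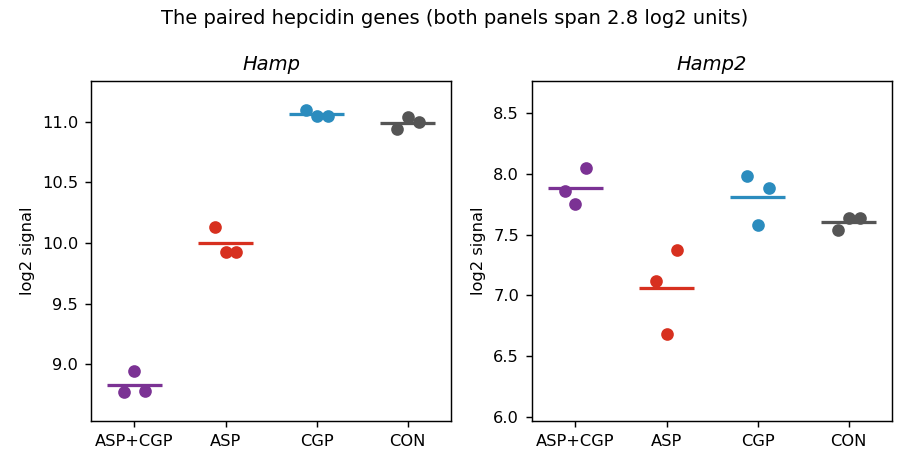
Log2 signal (vertical axis) of Hamp and Hamp2 on the 12 arrays, with 3 points per pool and a bar at the pool mean; both panels span the same number of log2 units. Hamp is lowest in ASP+CGP, at 8.77 to 8.95, while Hamp2 is lowest in ASP, at 6.68 to 7.37, and its ASP+CGP arrays lie at 7.75 to 8.05, above CON.

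Counted together against CON, 5 of the 10 iron genes fell in ASP+CGP, where 8.32% of all tested genes were called lower. In ASP 6 fell, where 8.13% of all genes were called lower, and in CGP 2 rose, where 1.62% were called higher. No member was called in the other direction in these comparisons. The median log2 difference of the 10 genes was -0.53 in ASP+CGP, -0.51 in ASP and 0.25 in CGP. In ASP+CGP all 10 genes were lower with arrays that did not overlap those of CON, a pattern shown by 52.5% of all genes, so that count says little about these genes. In ASP 9 were lower without overlap, against 43.0% of all genes, and in CGP 7 were higher without overlap, against 10.1%.

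**Figure D3:**
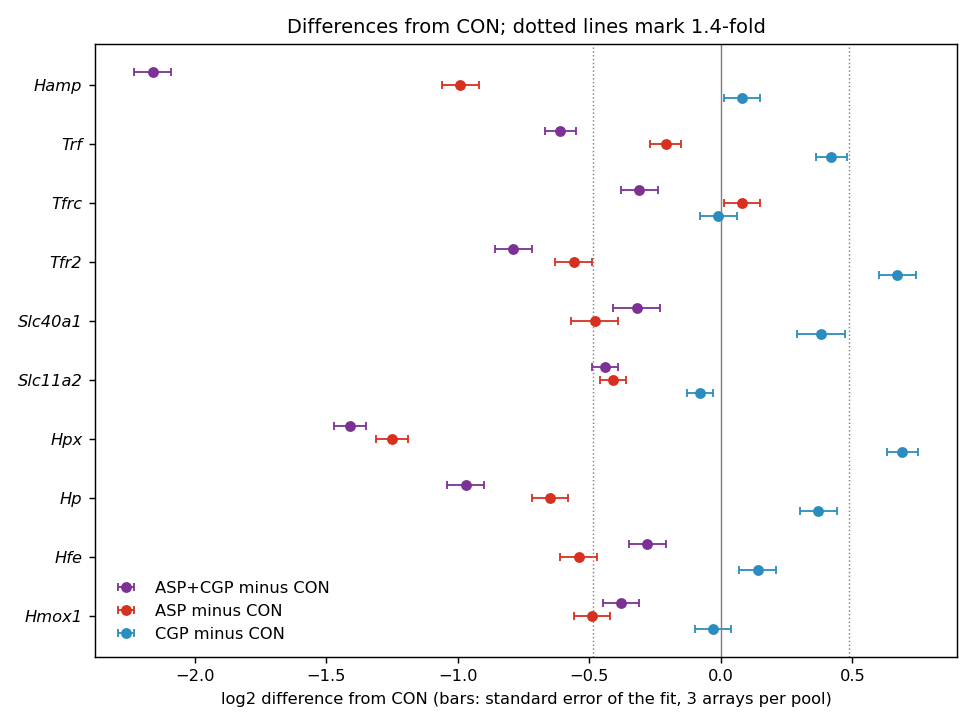
Log2 difference from CON (horizontal axis, with standard errors of the fit over 3 arrays per pool) for each of the 10 genes in ASP+CGP, ASP and CGP; dotted lines mark 1.4-fold. Hamp and Hpx are furthest to the left in ASP+CGP, at -2.16 and -1.41, and Hpx and Tfr2 are furthest to the right in CGP, at 0.69 and 0.67.

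Among the plasma carriers, Hpx encodes hemopexin, which binds free haem and delivers it to the liver. Its log2 signal was 9.4, 9.52 and 9.4 on ASP+CGP arrays, 9.67, 9.5 and 9.63 on ASP arrays, 11.51, 11.61 and 11.53 on CGP arrays, and 10.81, 10.84 and 10.91 on CON arrays (probe set 10566477). Both aspartame pools lay more than a full log2 unit below every CON array, and the CGP arrays lay above CON with no overlap. Hpx fell in ASP+CGP to 0.376 of CON (-1.41 ± 0.06, adjusted p = 9.64e-10) and in ASP to 0.42 (-1.25 ± 0.06, adjusted p = 3.69e-10), and rose 1.62-fold in CGP (0.69 ± 0.06, adjusted p = 5.26e-06). The arrays of ASP+CGP and ASP overlapped, with a difference of -0.16 (adjusted p = 0.0415, under the fold minimum). Against CON, Hpx lay 0.13 above the median of the hepatocyte markers in ASP+CGP, 0.19 below it in ASP and 0.05 below it in CGP, with 10, 18 and 14 of the 23 markers above it.

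Hp encodes haptoglobin, which binds free haemoglobin. It had log2 signals of 9.61, 9.83 and 9.73 in ASP+CGP, 10.01, 10.06 and 10.05 in ASP, 10.96, 11.11 and 11.09 in CGP, and 10.6, 10.72 and 10.74 in CON (probe set 10581605). The pools ran in the order ASP+CGP, ASP, CON and CGP with no overlap between neighbours. Hp fell to 0.512 of CON in ASP+CGP (-0.97 ± 0.07, adjusted p = 1.48e-07) and to 0.639 in ASP (-0.65, adjusted p = 1.66e-06), the second call being lost with the trend on signal level removed (-0.48). In CGP its log2 difference of 0.37 passed the test (adjusted p = 0.00465) but not the fold minimum.

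Trf encodes transferrin, the iron carrier of plasma, which oligodendrocytes make as well as hepatocytes. Its log2 signal was 11.45, 11.51 and 11.35 on ASP+CGP arrays, 11.79, 11.86 and 11.88 on ASP arrays, 12.43, 12.49 and 12.51 on CGP arrays, and 12.04, 12.08 and 12.04 on CON arrays (probe set 10596148). Again the 4 pools did not overlap. Trf fell in ASP+CGP to 0.653 of CON (-0.61 ± 0.06, adjusted p = 2.65e-06), a call that was lost after cyclic loess scaling and with the trend on signal level removed (-0.45 in both). In ASP the difference was -0.21 (adjusted p = 0.00637) and in CGP 0.42 (adjusted p = 0.000249), both under the fold minimum. In ASP all 23 hepatocyte markers had a lower value than Trf, which lay 0.85 above their median, and in the same arrays the median difference of the oligodendrocyte markers was 1.94. In ASP+CGP, where it was 0.2, Trf lay 0.92 above the hepatocyte median.

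**Figure D4:**
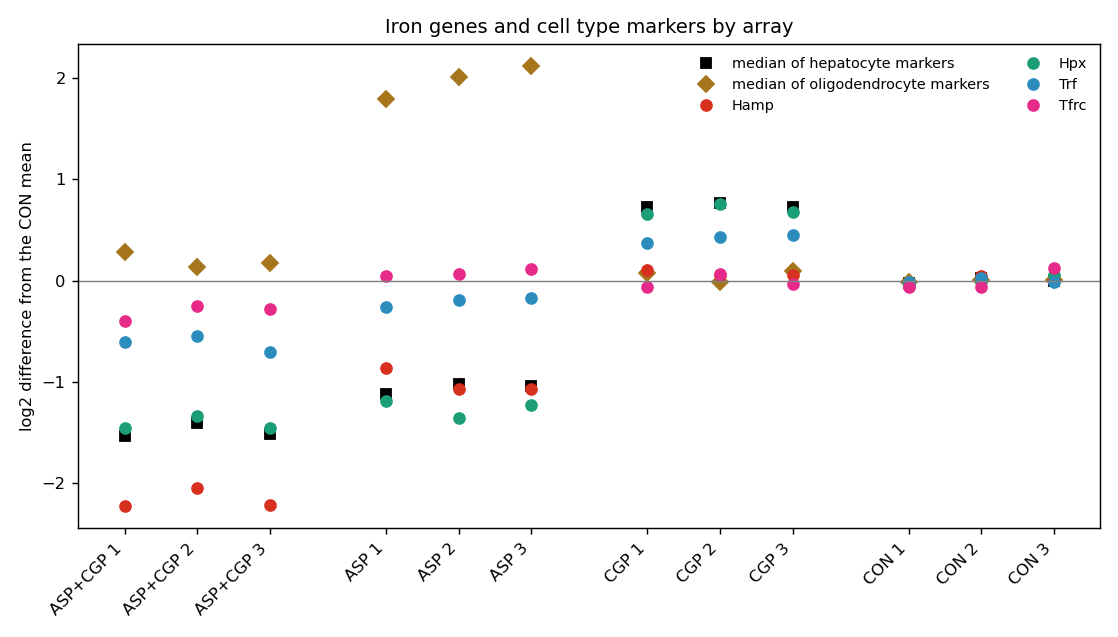
Distance from the CON mean in log2 units (vertical axis) on each of the 12 arrays (horizontal axis) for Hamp, Hpx, Trf and Tfrc, with the median of 23 hepatocyte markers as squares and of 15 oligodendrocyte markers as diamonds. Hpx stays near the squares in every pool, Hamp lies below them in ASP+CGP and in CGP, and Trf lies above them in both aspartame pools.

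Of the receptors and sensors, Tfr2, the transferrin receptor of hepatocytes and erythroid precursors, moved most. It had log2 signals of 7.21, 7.02 and 7.06 in ASP+CGP, 7.31, 7.28 and 7.4 in ASP, 8.59, 8.65 and 8.43 in CGP, and 7.86, 7.9 and 7.9 in CON (probe set 10526630). The aspartame pools lay below CON and the CGP pool above it, without overlap. Tfr2 fell to 0.578 of CON in ASP+CGP (-0.79 ± 0.07, adjusted p = 1.48e-06) and to 0.68 in ASP (-0.56 ± 0.07, adjusted p = 9e-06), and rose 1.59-fold in CGP (0.67 ± 0.07, adjusted p = 1.67e-05). The call in ASP was lost after cyclic loess (-0.44) and with the trend removed (-0.41).

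Tfrc, the receptor through which most cells take up transferrin iron, had the narrowest range of group means of the 10 genes, 0.39 log2 units. Its arrays read 6.73, 6.87 and 6.85 in ASP+CGP, 7.17, 7.19 and 7.24 in ASP, 7.06, 7.19 and 7.09 in CGP, and 7.06, 7.06 and 7.25 in CON (probe set 10435075). ASP, CGP and CON overlapped, and the ASP+CGP arrays lay below them. The log2 difference from CON was -0.31 in ASP+CGP (adjusted p = 0.00105, under the fold minimum), 0.08 in ASP (adjusted p = 0.332) and -0.01 in CGP (adjusted p = 0.993). ASP+CGP was -0.39 from ASP, a difference that was called only after the scaling was changed (-0.54 with cyclic loess, -0.56 with the trend removed).

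Hfe encodes the haemochromatosis protein, a partner of the transferrin receptors. It ranged over 8.3 to 8.47 in ASP+CGP, 7.99 to 8.21 in ASP, 8.77 to 8.84 in CGP and 8.63 to 8.73 in CON (probe set 10408227). ASP was the lowest pool and was 0.69 of CON (-0.54, adjusted p = 1.12e-05). In ASP+CGP the difference of -0.28 was under the fold minimum, and so was that of 0.14 in CGP (adjusted p = 0.551). The call in ASP was lost after cyclic loess (-0.37), with the trend removed (-0.36) and without the third ASP array (-0.47).

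Ferroportin, the product of Slc40a1, is the only known iron exporter of mammalian cells and is abundant in macrophages. The Slc40a1 signals were 8.15, 8.19 and 7.89 in ASP+CGP, 7.76, 7.98 and 8 in ASP, 8.76, 8.81 and 8.76 in CGP, and 8.27, 8.41 and 8.51 in CON (probe set 10354374). The 2 aspartame pools overlapped each other but neither overlapped CON. No difference from CON reached the fold minimum, with -0.32 in ASP+CGP (adjusted p = 0.00469), -0.48 in ASP (adjusted p = 0.000289) and 0.38 in CGP (adjusted p = 0.0259). The ASP value lay at the threshold and was called without the first CON array (-0.55), without the second ASP array (-0.51) or without the third (-0.53), and with array weights (-0.51). Of 11 macrophage markers 0 were called in ASP+CGP, where 8.32% of all genes were called lower, and their median was -0.21. In ASP 4 of these markers fell, where 8.13% of all genes did, with a median of -0.27. After cyclic loess 1 fell in ASP+CGP, where the median was 0.02, and 2 fell in ASP, where it was -0.11.

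Slc11a2, the divalent metal transporter that carries ferrous iron out of endosomes, ranged over 9.56 to 9.59 in ASP+CGP, 9.57 to 9.63 in ASP, 9.91 to 9.98 in CGP and 9.98 to 10.07 in CON (probe set 10432573). Its differences of -0.44 in ASP+CGP and -0.41 in ASP passed the test (adjusted p = 1.57e-05 and 1.13e-05) but not the fold minimum. Over all genes in the band of CON signal from 10 to 11 the median was -0.33 in ASP+CGP and -0.19 in ASP.

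Hmox1, the inducible haem oxygenase, breaks haem down to iron, biliverdin and carbon monoxide. It ranged over 10.82 to 11.09 in ASP+CGP, 10.86 to 10.91 in ASP, 11.32 to 11.36 in CGP and 11.32 to 11.42 in CON (probe set 10572897). Hmox1 was 0.711 of CON in ASP (-0.49, adjusted p = 2.43e-05), just past the fold minimum, and this call was lost with arrays centred on their medians (-0.47), after cyclic loess (-0.36), with the trend removed (-0.35), without the second CON array (-0.47) and without the third ASP array (-0.48). In ASP+CGP the difference was -0.38 (adjusted p = 0.000252), and in CGP it was -0.03 (adjusted p = 0.959).

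The ASP+CGP pool was also set against each single exposure. Against CGP, the comparison that gives the aspartame difference in antagonist-exposed mice, it was lower for 6 of the 10 genes, where 11.0% of all genes were called lower. Hamp was at 0.212 of the CGP level, Hpx at 0.232, Tfr2 at 0.363, Hp at 0.396, Trf at 0.487 and Slc40a1 at 0.615, of which the last call was lost with the trend removed (-0.48). All 23 hepatocyte markers were called lower in this comparison too, with a median log2 difference of -2.31. Hamp lay 0.07 and Hpx 0.21 above that median, and the other called genes lay further above it. Against ASP, which gives the antagonist difference in aspartame-exposed mice, Hamp alone was called lower, where 13.3% of all genes were called lower, and the differences of the other 9 genes lay between -0.41 for Trf and 0.26 for Hfe. Of the 23 hepatocyte markers 7 were called lower against ASP, with a median of -0.42. The comparisons share the ASP+CGP arrays.

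The interaction was negative and called for 5 of the 10 genes, where 15.5% of all genes were called negative. After Hamp the values were -0.91 for Tfr2 (adjusted p = 3.41e-06), -0.85 for Hpx (adjusted p = 2.58e-06), -0.83 for Trf (adjusted p = 1.18e-06) and -0.69 for Hp (adjusted p = 4.68e-05). All 23 hepatocyte markers had a called negative interaction too, with a median of -1.16. Slc40a1 (-0.22, adjusted p = 0.154), Hmox1 (0.15, adjusted p = 0.219), Hfe (0.12, adjusted p = 0.328) and Slc11a2 (0.04, adjusted p = 0.639) were not called, nor was Tfrc (-0.38, adjusted p = 0.00432), which passed the fold minimum after cyclic loess (-0.56) and with the trend removed (-0.57).

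Across the 12 arrays Hpx and Hp correlated at r = 0.982, Hpx and Tfr2 at 0.977, and Hp and Trf at 0.961, whereas Hamp correlated with Hpx at 0.889 and Tfrc with Hmox1 at 0.166. Outside the 10 genes, those most like Hpx were Hgd (r = 0.998), Serpinf2, Cyp2f2, C8g and Cyp8b1, and those most like Trf were Fah (0.993), Insig2, Lcat, Ttr and Aldh7a1. Those most like Hamp were Ap1g1 (0.993), Mkln1, Clint1, Pdcl3 and Kansl1l, and those most like Tfrc were Bace1 (0.967), Txndc16, Rab33b, Armc1 and Ptprm. Of the listed hepatocyte markers only Ttr was among these genes, in the set for Trf. The sets for Hamp, Hpx and Tfrc held none of those markers, and in which tissues their genes are expressed was not examined. These correlations rest on 4 pools and are given as a description only.

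Beyond the 10 genes, 89 other iron and haem genes were tested out of 98 listed. In ASP+CGP 13 fell and 1 rose, with a median of -0.26, in ASP 9 fell and 2 rose, with a median of -0.24, and in CGP 2 rose and 1 fell, with a median of 0.02. Either way, 14.4%, 17.9% and 1.64% of all genes were called in ASP+CGP, ASP and CGP, against 15.7%, 12.4% and 3.37% of these 89. The scaling weighed on most of these calls. After cyclic loess 4 fell in ASP+CGP (Hnf4a, Hjv, Alas2 and Lcn2), 3 fell in ASP (Hnf4a, Alas2 and Lcn2) with App and Prnp still higher, and the 3 calls in CGP were kept. All other calls of these lists in ASP+CGP and ASP, that of Hjv in ASP included, were lost there.

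**Figure D5:**
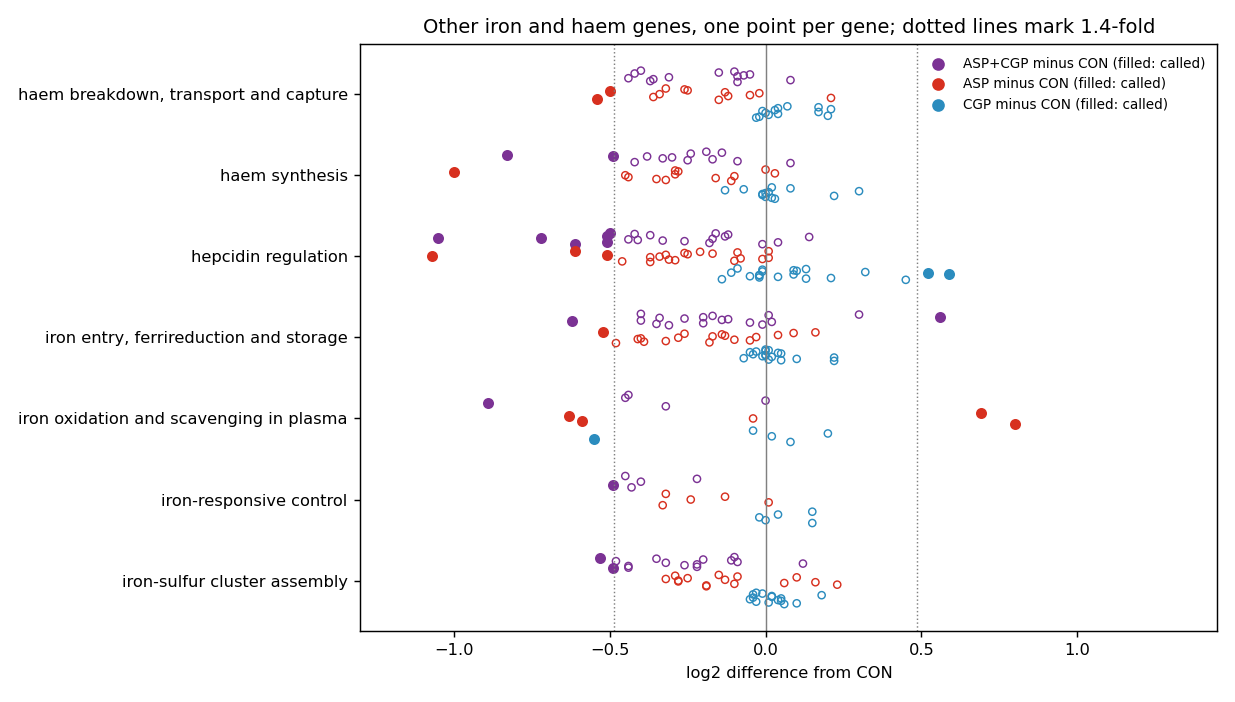
Log2 difference from CON (horizontal axis) of the other iron and haem genes in 7 lists (vertical axis), 1 point per gene and comparison; filled points are called and dotted lines mark 1.4-fold. Most points lie within the dotted lines, and the called points furthest to the left are Hnf4a and Lcn2 in ASP+CGP, at -1.05 and -0.89, and Hnf4a and Alas2 in ASP, at -1.07 and -1.

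Of 20 regulators of hepcidin, 6 fell in ASP+CGP, where 8.32% of all genes did, 3 fell in ASP, where 8.13% did, and 2 rose in CGP, where 1.62% did. In ASP+CGP the calls of Acvr1, Bmpr2, Smad5 and Stat3 were lost after cyclic loess (-0.18, -0.23, -0.2 and -0.35), and in ASP those of Acvr1 (-0.43) and Hjv (-0.38). Hnf4a, a hepatocyte transcription factor, was 0.484 of CON in ASP+CGP and 0.475 in ASP, and 1.5-fold higher in CGP. Hjv, the BMP co-receptor hemojuvelin, was 0.607 of CON in ASP+CGP and 0.702 in ASP, and 1.43-fold higher in CGP. Both followed the direction of the hepatocyte markers in all 3 groups. The BMP type I receptor gene Acvr1 fell to 0.707 of CON in ASP+CGP and 0.657 in ASP, and Stat3, which carries the interleukin-6 signal to Hamp, fell to 0.655 in ASP+CGP (-0.61, adjusted p = 7.07e-06). The ligand gene Bmp6 had differences of -0.12, -0.09 and 0.09 in ASP+CGP, ASP and CGP (adjusted p of 0.167, 0.352 and 0.846), and Tmprss6, which cleaves hemojuvelin, had -0.01, -0.37 and 0.45 (adjusted p of 0.903, 0.00755 and 0.026).

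The ferritin subunit genes of the cytosol were not called. Fth1, the ferritin heavy chain, differed from CON by 0.01 in ASP+CGP, 0.09 in ASP and 0 in CGP, and Ftl1, the light chain, by -0.17, -0.26 and -0.03 (adjusted p of 0.00712, 0.000441 and 0.958), each under the fold minimum. Among 18 genes of iron entry, ferrireduction and storage, Slc39a14, an importer of iron that is not bound to transferrin, fell to 0.649 of CON in ASP+CGP (-0.62, adjusted p = 3.77e-05), while Ftmt, mitochondrial ferritin, rose 1.48-fold (0.56, adjusted p = 0.00288). In the band of CON signal from 6 to 7, which holds Ftmt, the median of all genes was 0.25 in ASP+CGP. In ASP the only call was Cyb561, at 0.7 of CON. Of this list 11.1% were called in ASP+CGP and 5.56% in ASP, against 14.4% and 17.9% of all genes.

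Of 5 genes of iron oxidation and scavenging, Lcn2, whose product binds bacterial iron carriers, fell in all 3 groups, to 0.539 of CON in ASP+CGP, 0.665 in ASP and 0.684 in CGP. Lcn2 was thus the 1 gene of these lists that was called lower in CGP, where 0.0189% of all genes were. The ferroxidase gene Cp fell to 0.648 in ASP (-0.63, adjusted p = 1.58e-07). In ASP, App and Prnp, which neurons express strongly, were 1.62-fold and 1.74-fold higher. Of these 5 genes 1 was called in ASP+CGP and 4 in ASP, where 14.4% and 17.9% of all genes were.

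In haem synthesis Alas2, the erythroid form of the first enzyme, fell to 0.562 of CON in ASP+CGP (-0.83 ± 0.06, adjusted p = 1.9e-07) and to 0.498 in ASP (-1 ± 0.06, adjusted p = 2.51e-09), with -0.13 in CGP. Its housekeeping counterpart Alas1 had -0.24, -0.28 and -0.07, and the mitochondrial protein gene Tspo -0.09, -0.35 and 0, none of them called. Only 2 of 12 erythroid markers were tested, and neither Slc4a1 nor Klf1 was called against CON. Slc4a1 was higher in ASP+CGP than in ASP (0.49), Klf1 was higher in ASP+CGP than in CGP (0.54), and both had a called positive interaction (0.67 and 0.74). Cpox fell to 0.713 of CON in ASP+CGP. Of 13 genes of haem breakdown, transport and capture, the haem importer gene Slc46a1 fell to 0.689 and the biliverdin reductase gene Blvrb to 0.706, both in ASP. The haem synthesis list had 15.4% called in ASP+CGP and 7.69% in ASP, and the haem breakdown list 0% and 15.4%. Among all genes 14.4% and 17.9% were called.

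Of 5 genes of iron-responsive control, Hif1a, a hypoxia factor, was 0.711 of CON in ASP+CGP, and of 15 genes of iron-sulfur cluster assembly Ciao1 was 0.693 and Nfu1 0.712 in the same pool. These values lay just past the fold minimum, and each call was lost under all 3 other scalings. Genes of both lists gave no call in ASP or CGP. In ASP+CGP the shares called were 20.0% and 13.3%, against 14.4% of all genes.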

How the data were processed

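Adrenal RNA pools of 4 groups were each hybridised to 3 Affymetrix Mouse Gene 1.0 ST arrays. The authors deposited a log2 signal for each probe set, made by RMA in Partek with background correction, quantile normalization of probes and median polish. With 1 pool per group, the arrays give the precision of the measurement and not that of the difference between groups of mice. No scan batches are given in the sources used here.

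Among 26533 probe sets the platform table gives a single symbol to 17710, several to 1077 and none to 7746. For each of 16244 genes the brightest single-symbol probe set was kept. A further 344 genes, under 6 in all group means, were dropped, which left 15900. A mean for each group was fitted with limma 3.58.1 in R 4.3.3 (data.table, version 1.17.8, read the files) to all 12 arrays, with empirical Bayes moderation and Benjamini-Hochberg adjustment within each of 6 contrasts. Errors given are its standard errors. The steps were tested on simulated data. Promoter windows were searched in Python 3.11.15 and aligned with Biopython 1.88, and plots were drawn with matplotlib 3.10.9.

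The 10 genes and all lists were chosen with earlier results of these data known. Genes named are the 10, up to 3 called genes with the largest differences in each pathway list, and Fth1, Ftl1, Cp, Alas1 and Tspo. Also named are the brightest marker each of cortex, chromaffin cells and hepatocytes, and the erythroid markers tested. The 5 genes most correlated with Hamp, Trf, Hpx and Tfrc are named as well. Hamp2, Acvr1, Bmpr2, Smad5, Bmp6, Tmprss6, Kcnj13, Otx2 and the adrenal markers named as lower in ASP were added after their values were seen. The alternatives tried were the dim-gene filter, the scaling, array weights, the moderation, a fit to the compared groups only, a replicate block, the adjustment, the fold minimum, the probe set per gene and leaving out each array.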

Additional observations from a re-analysis of the deposited data

Results flagged for a closer look

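For 5 of the 10 genes the aspartame difference itself differed between mice with and without developmental NMDA receptor antagonism, by the interaction term of the linear model, where 15.5% of all genes were called negative. All 23 hepatocyte markers had a called negative interaction too, with a median of -1.16, and of the 5 genes only Hamp had a value below that median. For Hamp the difference was -2.24 with the antagonist and -0.99 without it (interaction -1.24). For Tfr2 it was -1.46 with and -0.56 without (interaction -0.91), and for Hpx -2.11 with and -1.25 without (interaction -0.85). For Trf it was -1.04 with and -0.21 without (interaction -0.83), and for Hp -1.33 with and -0.65 without (interaction -0.69). For Hamp most of the interaction lies between the aspartame pools, which differ by -1.17, while the pools without aspartame differ by 0.08. For Hpx the pools without aspartame differ by 0.69 and the aspartame pools by -0.16. The 3 arrays of a pool hold the same RNA, so the spread between mice does not enter these tests.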

How the results depend on the processing

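Among the iron genes called lower in ASP than in CON, 6 in the fit as reported, 3 remained after cyclic loess, 2 after removal of the trend with signal level and 2 at a 1.8-fold minimum, with 5 to 7 when 1 array was left out. In ASP+CGP against CON, where 5 were called, 10 passed on adjusted p alone and 3 at 1.8-fold (5 to 5 with 1 array left out). In CGP against CON, where 2 were called, 5 passed on adjusted p alone and 0 at 1.8-fold (2 to 2). In ASP+CGP against ASP, where 1 was called, 2 were called after cyclic loess, 2 with the trend removed and 7 on adjusted p alone (1 to 1). In ASP+CGP against CGP, where 6 were called, 10 passed on adjusted p alone (6 to 6). For the interaction, where 5 were called, 3 passed at 1.8-fold (5 to 5). Of all 15900 genes, 11556 passed on adjusted p alone in ASP+CGP against CON and 479 in CGP against CON. In ASP+CGP against ASP 10027 did, and against CGP 12027. Apart from CGP against CON, the iron gene counts on adjusted p alone in these contrasts thus say little about these genes. At 1.8-fold 1076 of all genes passed in ASP, 191 in ASP+CGP and 92 in CGP against CON, and 1323 for the interaction. Where calls were lost after a change of scaling, the cause was not tested. Counts over all genes moved by more than 1.5 times in ASP+CGP against CON, from 2292 to 1172 after cyclic loess and 972 with the trend removed, and in ASP+CGP against CGP from 3106 to 1622 and 1425. Of all calls in ASP+CGP against ASP 32.9% were higher (43% after centring on medians, 19.4% after cyclic loess), in ASP+CGP against CGP 43.9% (66.8% after centring) and for the interaction 36.7% (46.9% after centring, 23.4% after cyclic loess).

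Of the other iron and haem genes, 13 fell in ASP+CGP and 9 in ASP, against 6 and 8 after centring, 4 and 3 after cyclic loess and 4 and 2 with the trend removed, while hepatocyte marker calls stayed at 22 and 19 under these scalings. These list counts under other settings were added after seeing the data.

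The differences that changed sign were both uncalled and near 0. Slc11a2 between ASP+CGP and ASP was -0.04, against 0.01 with arrays centred on medians, 0.11 after cyclic loess and 0.11 with the trend removed. Tfrc between CGP and CON was -0.01, against 0.01 after cyclic loess and 0.02 with the trend removed, and -0.05 to 0.06 when 1 array was left out, with positive values of 0.06 without the third CON array, 0.02 without the first CGP array and 0.01 without the third CGP array.

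Arrays share replicate numbers across pools. Same-numbered arrays deviated together (r over 0.1) in 8 of 18 pairs, with r from -0.15 to 0.379. Differently numbered arrays did so in 9 of 36 pairs, with r from -0.386 to 0.281, and 7 of 12 arrays correlated best with their own number. Whether the numbers mark shared handling was not tested. The sources used here give no pairing by number, and the numbers were not taken as pairs in the fit as reported. With replicate number as a block the counts stayed at 5, 6, 2, 1, 6 and 5 for the contrasts ASP+CGP, ASP and CGP against CON, ASP+CGP against ASP, ASP+CGP against CGP and the interaction.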
